A study of Mus musculus with 6 samples.

Results

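The bone morphogenetic protein (Bmp) pathway was examined in primary motoneuron cultures through 10 genes: the ligand genes Bmp4, Bmp6 and Bmp7, the antagonist gene Nog, the receptor genes Bmpr1a, Bmpr1b and Bmpr2, and the target genes Id1, Id2 and Id3. They were picked by gene symbol among 39174 genes per library, because Bmp6 had stood among the genes with the lowest unadjusted p between genotypes in these same libraries. Their genotype differences are therefore given as a description, with no test. All 10 were among the 14611 genes that entered the transcriptome-wide fit, which required a mean of at least 1 FPKM (fragments per kilobase of transcript, scaled to the mapped fragments of the library).

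RNA-seq was available for 3 Nmd+/+ and 3 Nmd-/- libraries of cultured mouse motoneurons of strain CD-1, each genotype numbered 1 to 3. Nmd-/- denotes animals homozygous for the neuromuscular degeneration allele, which lies in Ighmbp2. That gene encodes a helicase and is mutated in spinal muscular atrophy with respiratory distress, and the Nmd+/+ cultures are the controls. Neither group received a treatment that the labels name, and the age of the animals is not given. No label says which cultures or animals the replicates of a genotype came from, so the spread between them may be partly technical.

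Bmp ligands are secreted dimers that bind a complex of type I receptors (Bmpr1a and Bmpr1b) and type II receptors (Bmpr2), which phosphorylates Smad proteins that enter the nucleus with Smad4. Id1, Id2 and Id3 are direct targets of this signal. They encode helix-loop-helix proteins without a DNA-binding region, which hold E proteins and proneural factors inactive. In the developing spinal cord the pathway patterns dorsal progenitors, and Noggin, the product of Nog, binds the ligands outside the cell and keeps them from their receptors.

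In all 6 libraries Chat did not exceed 0.0692 FPKM and Mnx1 did not exceed 0.0247 FPKM, so these defining motoneuron transcripts were near 0. Of 9 motoneuron markers 2 had a mean of at least 1 FPKM, Ret (1.73 to 3.85 FPKM) and Isl1 (0.608 to 1.81 FPKM). All 9 summed to between 3.41 and 6.71 FPKM. Markers of other spinal neurons summed to between 316 and 709 FPKM, and radial glia and astrocyte markers to between 3229 and 5031 FPKM. Most of that sum was Vim (2380 to 4452 FPKM), which fibroblasts also express, and the astrocyte gene Gfap did not exceed 3.91 FPKM. All 11 radial glia and astrocyte markers nevertheless had a mean of at least 1 FPKM. Fabp7 ranged from 283 to 564 FPKM over the libraries, Slc1a3 from 101 to 132 FPKM, and Sox9 from 31.2 to 40.6 FPKM. The levels below are those of the culture as sequenced. Ighmbp2 lay between 1.09 and 1.44 FPKM in Nmd+/+ and between 0.598 and 0.876 FPKM in Nmd-/-. The libraries numbered 2 stood apart by fibroblast and meningeal markers, whose summed level over 13 genes was 198 and 236 FPKM there against 36.6 to 42.8 FPKM in the other 4. Xist measured 0.155 FPKM in Nmd+/+ replicate 2, 0.143 FPKM in Nmd-/- replicate 3, and at least 224.5 FPKM in the rest. The libraries numbered 2, and likewise those numbered 3, thus differed in Xist between genotypes. The part of this in other differences between same-numbered libraries was not tested. By the width of the deposited intervals, depth was equivalent to between 15446384 and 23138152 fragments per library.

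The 3 ligand genes encode related proteins, and their coding ends are shown because the FPKM of each rests on reads that can be assigned to it. The last 300 coding bases, stop codon included, were read from GENCODE M21 (GRCm38). They encode most of the mature ligand with part of its cystine knot, and the capitals mark in-frame TGT and TGC codons, which encode cysteine.
Bmp4: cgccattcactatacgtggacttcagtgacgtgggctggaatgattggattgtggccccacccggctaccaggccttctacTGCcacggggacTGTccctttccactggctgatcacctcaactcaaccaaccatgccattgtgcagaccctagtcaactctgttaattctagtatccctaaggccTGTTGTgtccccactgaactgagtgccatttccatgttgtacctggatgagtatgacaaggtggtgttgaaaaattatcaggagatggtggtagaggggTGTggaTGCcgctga
Bmp6: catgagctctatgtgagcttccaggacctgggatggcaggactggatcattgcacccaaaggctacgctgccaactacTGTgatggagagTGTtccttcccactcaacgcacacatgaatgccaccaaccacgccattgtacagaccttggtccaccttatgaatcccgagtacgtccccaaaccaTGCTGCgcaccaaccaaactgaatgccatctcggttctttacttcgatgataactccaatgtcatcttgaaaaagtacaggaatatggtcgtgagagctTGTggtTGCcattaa
Bmp7: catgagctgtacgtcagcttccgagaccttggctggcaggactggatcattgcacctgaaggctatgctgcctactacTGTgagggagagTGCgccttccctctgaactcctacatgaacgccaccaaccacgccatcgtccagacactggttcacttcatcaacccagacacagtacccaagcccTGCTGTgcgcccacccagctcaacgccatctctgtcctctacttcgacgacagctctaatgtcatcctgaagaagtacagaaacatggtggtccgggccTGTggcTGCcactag

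These stretches are positions 928 to 1227 of the coding sequence of Bmp4, 1234 to 1533 of Bmp6 and 994 to 1293 of Bmp7. They lie at chr14:46383859-46384158 on the minus strand (Bmp4, 1 exon), at chr13:38497333-38499068 on the plus strand (Bmp6, over 3 exons) and at chr2:172870137-172875253 on the minus strand (Bmp7, over 3 exons). Each holds 6 cysteine codons. Bmp6 and Bmp7 were identical at 79.4% of aligned positions, Bmp4 and Bmp6 at 66.4%, and Bmp4 and Bmp7 at 62.7%. The longest run of letters shared by the full coding sequences was 25 bases for Bmp6 and Bmp7 and 11 bases for Bmp4 and Bmp6. The corresponding run was 16 bases for Bmpr1a and Bmpr1b and at most 15 bases between any of the 3 Id genes. A read longer than these runs thus cannot match both coding sequences of such a pair without a mismatch.

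Bmp6 (ENSMUSG00000039004, chromosome 13, 38345716 to 38499728, GRCm38), whose product is known for iron regulation through hepcidin as well as for dorsal patterning, measured higher in every Nmd-/- library than in any Nmd+/+ library. It stood at 10.9, 9.29 and 7.06 FPKM in Nmd+/+ replicates 1, 2 and 3 and at 16.2, 11.5 and 13.5 FPKM in Nmd-/- replicates 1, 2 and 3. The highest Nmd+/+ value, that of replicate 1, and the lowest Nmd-/- value, that of replicate 2, were close to each other. The means were 9.07 ± 1.91 and 13.7 ± 2.3 FPKM (SD, n = 3 each), a ratio of 1.51. The difference in log2(FPKM + 1) was 0.56 (SE 0.19, the moderated SE of limma, as for every SE below). Within same-numbered libraries the ratio was 1.49, 1.24 and 1.92 for numbers 1, 2 and 3. Bmp6 was the 1 gene of the 10 whose genotype groups did not overlap. Over all tested genes 1.76% had every Nmd-/- value above every Nmd+/+ value and 0.910% the reverse, and Bmp6 was chosen for this contrast.

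**Figure D1:**
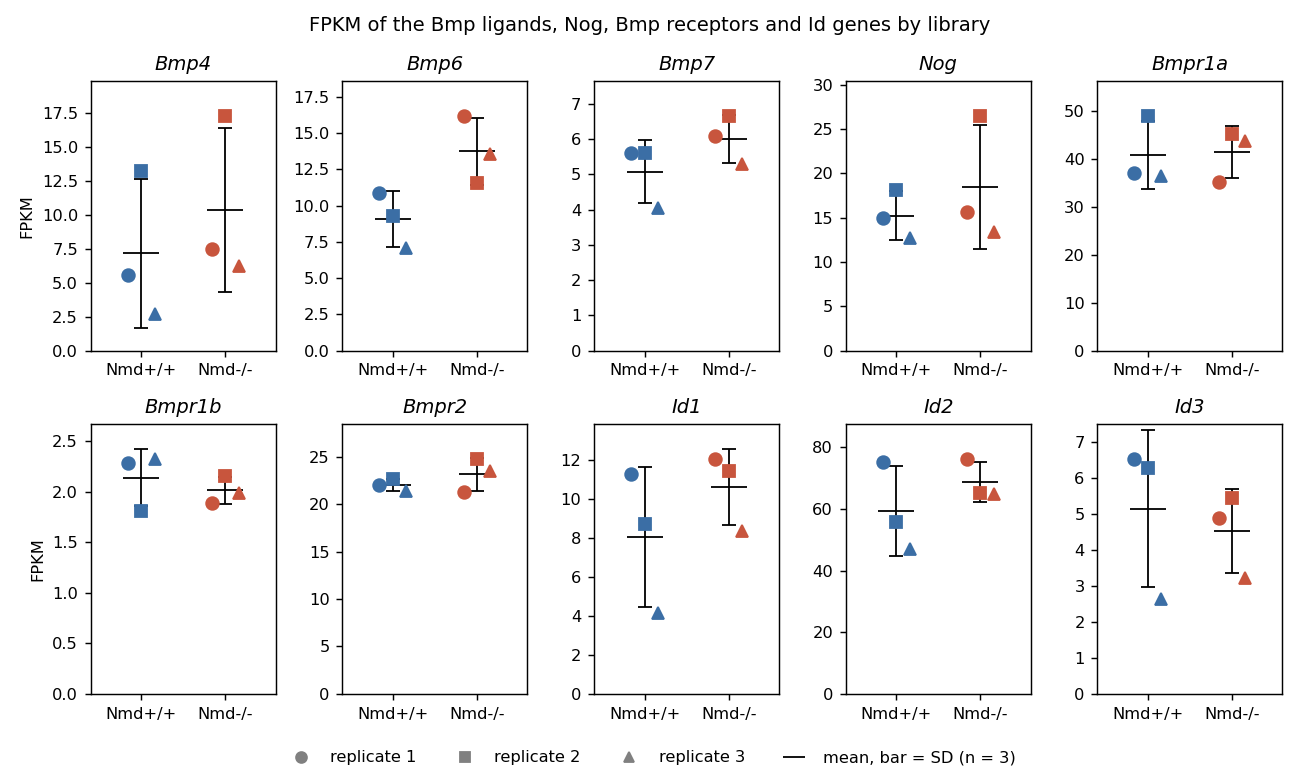
FPKM of the 10 genes (vertical axes, from 0) in the 3 Nmd+/+ and 3 Nmd-/- libraries, with marker shape giving the replicate number and black bars the mean and SD of 3. The Bmp6 groups are apart (7.06 to 10.9 against 11.5 to 16.2 FPKM), and those of the other 9 genes overlap.

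Bmp4 (ENSMUSG00000021835, chromosome 14, 46383520 to 46390669), a ligand of dorsal and ventral patterning, varied most between libraries, by 6.41-fold from lowest to highest. It stood at 5.54, 13.2 and 2.69 FPKM in Nmd+/+ replicates 1, 2 and 3, and at 7.50, 17.2 and 6.24 FPKM in Nmd-/- replicates 1, 2 and 3. The libraries numbered 2 were highest in both genotypes, and Nmd+/+ replicate 3 was lowest. The Nmd-/- library was the higher one in 3 of 3 numbered pairs, by 1.35-, 1.304- and 2.32-fold, but the groups overlapped. The means were 7.15 ± 5.45 and 10.3 ± 6.0 FPKM (SD, n = 3 each), a log2 difference of 0.57 (SE 0.53). That difference fell to 0.11 without Nmd+/+ replicate 3 and to 0.16 without Nmd-/- replicate 2, and it reached 1.08 without Nmd+/+ replicate 2. The antisense gene Gm15222 overlaps the Bmp4 locus and lay between 0.404 and 1.48 FPKM; without strand its reads cannot be told apart from those of Bmp4 where they overlap.

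Bmp7 (ENSMUSG00000008999, chromosome 2, 172868012 to 172940321), whose product forms heterodimers with other Bmp ligands, showed the smallest genotype difference of the 3 ligand genes. Its level was 5.59, 5.60 and 4.04 FPKM for Nmd+/+ and 6.09, 6.65 and 5.30 FPKM in Nmd-/- replicates 1, 2 and 3. The Nmd-/- library was again the higher one in each pair, by 1.09-, 1.19- and 1.31-fold, and the groups overlapped through Nmd-/- replicate 3. The log2 difference was 0.21 (SE 0.16), and 0.084 without Nmd+/+ replicate 3.

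Bmp6 and Bmp4 thus had nearly the same genotype difference with very different spread. With the replicate number added as a block, the SE was 0.14 for Bmp4 (0.53 without) and 0.13 for Bmp6 (0.19 without). The difference of Bmp6 exceeded that of Bmp7 by 0.34 on the log2 scale and was the larger one in 3 of 3 pairs. Against Bmp4 it was larger in 1 of 3 pairs.

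Bmp6 held the largest share of the summed FPKM of the 3 ligand genes in 4 libraries, between 49.4% (Nmd+/+ replicate 1) and 54.3% (Nmd-/- replicate 1). In the libraries numbered 2 Bmp4 led, with 47.0% in Nmd+/+ and 48.7% in Nmd-/-, and Bmp6 held 33.05% and 32.6%. The ratio of Bmp6 to Bmp4 was 0.703 and 0.669 there, against 1.96 to 2.63 elsewhere. The libraries numbered 2 therefore stood apart in the makeup of the ligand transcripts in both genotypes. The sum of the 3 genes was higher in Nmd-/- in each numbered pair, at 22.0, 28.1 and 13.8 FPKM in Nmd+/+ and 29.7, 35.4 and 25.07 FPKM in Nmd-/-.

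**Figure D2:**
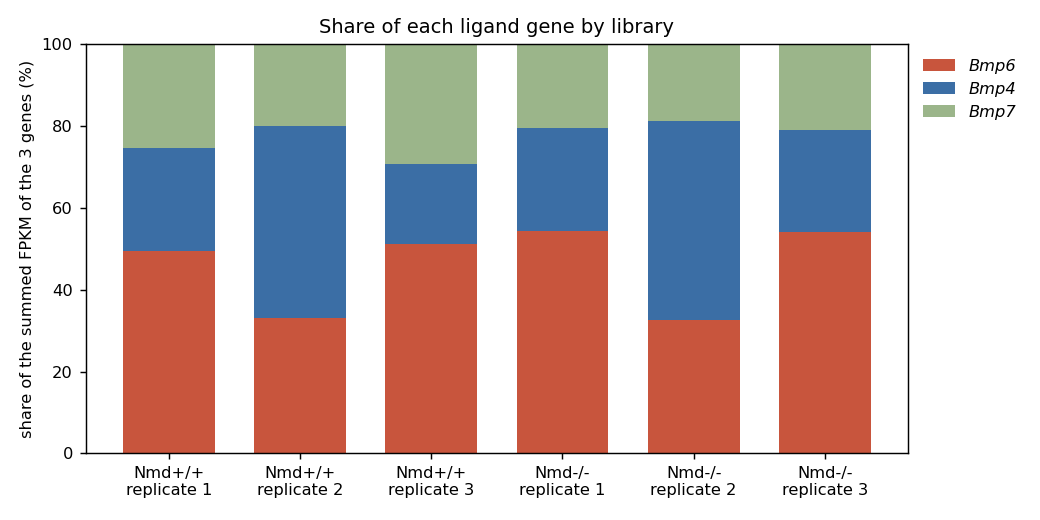
Share of Bmp6, Bmp4 and Bmp7 in their summed FPKM (vertical axis, percent) in each of the 6 libraries. Bmp4 takes 47.0% and 48.7% in the libraries numbered 2 and 19.5% to 25.2% in the other 4, where Bmp6 is the largest share.

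Nog (ENSMUSG00000048616, chromosome 11, 89300638 to 89302559) exceeded each single ligand gene in 4 of 6 libraries. Its level was 14.9, 18.1 and 12.7 FPKM for Nmd+/+ and 15.6, 26.4 and 13.4 FPKM in Nmd-/- replicates 1, 2 and 3. As for Bmp4, the libraries numbered 2 were highest in both genotypes. The Nmd-/- library was higher in 3 of 3 pairs, by 1.05-, 1.46- and 1.06-fold, and the log2 difference of 0.22 (SE 0.26) turned to -0.056 without Nmd-/- replicate 2 and reached 0.41 without Nmd-/- replicate 3. Relative to the summed ligand FPKM, Nog stood at 0.678, 0.644 and 0.918 in Nmd+/+ and at 0.525, 0.747 and 0.534 in Nmd-/-. These ranges overlapped.

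The receptor genes were the most even of the 10. Bmpr1a (ENSMUSG00000021796, chromosome 14, 34410734 to 34503341), the widely expressed type I receptor gene, stood at 37.0, 48.9 and 36.4 FPKM for Nmd+/+ and 35.1, 45.2 and 43.7 FPKM in Nmd-/- replicates 1, 2 and 3. Its Nmd-/- library was the higher one in 1 of 3 pairs, and the log2 difference was 0.024 (SE 0.17). Its sign turned without Nmd+/+ replicate 1 or 3 and without Nmd-/- replicate 2 or 3.

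Bmpr1b (ENSMUSG00000052430, chromosome 3, 141837136 to 142169425), the type I receptor gene of dorsal neural tube and cartilage, was the lowest of the 10. The Nmd+/+ libraries held 2.28, 1.81 and 2.32 FPKM and the Nmd-/- libraries 1.89, 2.16 and 1.99 FPKM, with a log2 difference of -0.056 (SE 0.13). Bmpr2 (ENSMUSG00000067336, chromosome 1, 59764279 to 59870549), the type II receptor gene, spanned the narrowest range, 1.16-fold over the 6 libraries. Levels were 22.0, 22.7 and 21.4 FPKM for Nmd+/+ and 21.3, 24.7 and 23.5 FPKM for Nmd-/-, with a log2 difference of 0.066 (SE 0.12). With all 6 libraries the differences of the 3 receptor genes were smaller than their moderated SE. For Bmpr2, whose own within-group SD was 0.080 on the log2 scale, the moderation raised the SE. Leaving out 1 library put Bmpr1b between -0.13 (without Nmd+/+ replicate 2) and -0.013 (without Nmd+/+ replicate 3), and Bmpr2 between 0.020 (without Nmd-/- replicate 2) and 0.12 (without Nmd-/- replicate 1). Without both libraries numbered 2 the Bmpr1b difference was -0.17 (SE 0.16), larger than its SE.

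The Id genes did not share 1 genotype pattern. Id1 (ENSMUSG00000042745, chromosome 2, 152736251 to 152737410) stood at 11.3, 8.72 and 4.17 FPKM for Nmd+/+ and 12.05, 11.4 and 8.39 FPKM in Nmd-/- replicates 1, 2 and 3. Nmd+/+ replicate 3 was far below the other 5 libraries. The Nmd-/- library was higher by 1.07-, 1.31- and 2.02-fold in the pairs, and the log2 difference of 0.43 (SE 0.32) became 0.074 when Nmd+/+ replicate 3 was left out and 0.70 when Nmd+/+ replicate 1 was.

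Id2 (ENSMUSG00000020644, chromosome 12, 25093801 to 25096092), which many neural progenitors express, was the most abundant of the 10. Levels were 75.4, 55.8 and 47.0 FPKM for Nmd+/+ and 76.1, 65.1 and 64.95 FPKM in Nmd-/-. Replicates 1 were highest and almost equal between genotypes, and the pair ratios were 1.01, 1.17 and 1.38. The log2 difference was 0.23 (SE 0.19), 0.078 without Nmd+/+ replicate 3 and 0.41 without Nmd+/+ replicate 1.

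Id3 (ENSMUSG00000007872, chromosome 4, 136143497 to 136145755) ran the other way in 2 of the 3 pairs. Levels were 6.53, 6.29 and 2.64 FPKM for Nmd+/+ and 4.91, 5.47 and 3.24 FPKM in Nmd-/-, so that the Nmd-/- library stood at 0.752, 0.869 and 1.23 of its Nmd+/+ counterpart. The libraries numbered 3 were lowest in both genotypes. The log2 difference was -0.10 (SE 0.31), and it ranged from -0.44 without Nmd+/+ replicate 3 to 0.082 without Nmd+/+ replicate 1. Id3 also had the thinnest measurement of the Id genes, equivalent to between 113 and 333 fragments per library, against 157 to 447 for Id1 and 2260 to 5035 for Id2. For Bmp6 the equivalent was 706 to 1602 fragments. These equivalents are the number of fragments whose counting error would give the deposited interval.

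**Figure D3:**
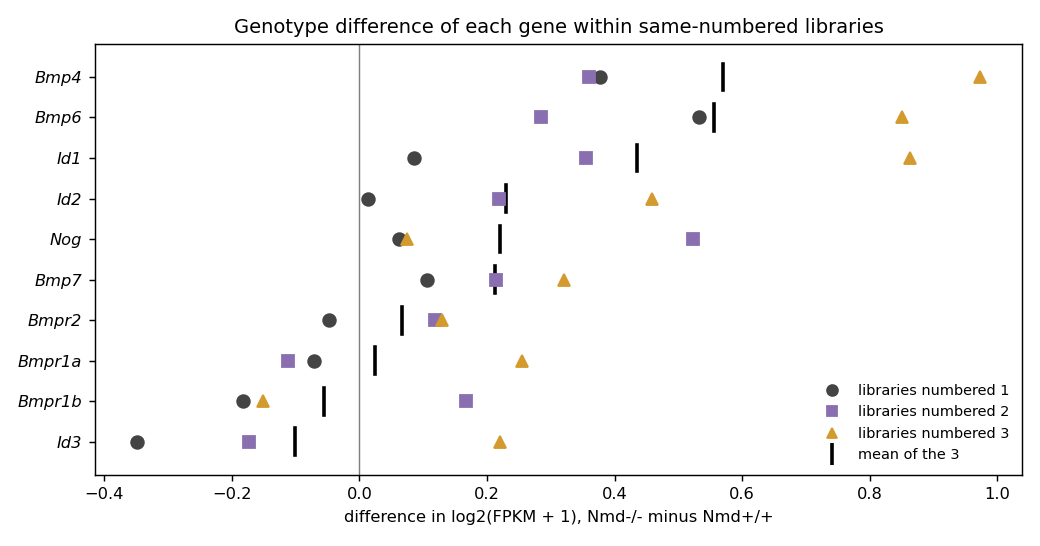
Difference in log2(FPKM + 1), Nmd-/- minus Nmd+/+, within libraries of the same number (markers) and its mean over 3 numbers (black bars), for each of the 10 genes. Bmp4, Bmp6, Bmp7, Nog, Id1 and Id2 lie above 0 in 3 of 3 pairs, and the receptor genes and Id3 lie on both sides.

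Across the 10 genes, 8 had a higher mean in Nmd-/-, where 56.0% of all tested genes did, and 6 were higher in 3 of 3 pairs, where 14.9% of all tested genes were. Their median log2 difference was 0.22 against 0.017 over all tested genes. The median difference of the 10 was 0.038 in the libraries numbered 1, 0.22 in those numbered 2 and 0.29 in those numbered 3. Nmd+/+ replicate 3 was the lowest of the 6 libraries for 7 of the 10 genes, as it was for 28.6% of all tested genes. The summed level of dividing cell markers, all 8 of which were at a mean of at least 1 FPKM, ranged from 388 to 597 FPKM in Nmd+/+ and from 478 to 586 FPKM in Nmd-/-, and was lowest in Nmd+/+ replicate 3. In the libraries numbered 2 that sum was 597 FPKM in Nmd+/+ and 539 FPKM in Nmd-/-. By mean level, 8 of 8 dividing cell markers and 11 of 13 fibroblast and meningeal markers were higher in Nmd-/-. So were 7 of 8 microglia, 6 of 8 endothelial, 5 of 11 radial glia and astrocyte and 2 of 9 motoneuron markers. The count was 1 of 11 for markers of other spinal neurons and 0 of 7 for neural crest and Schwann cells. The part of any of these cells in the differences was not tested. In bulk RNA, fewer cells of a type and less RNA per cell cannot be told apart. Because the genes were chosen with this contrast known, nothing is read from these counts.

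By level per length, Id2 stood first with a mean of 64.1 FPKM, followed by Bmpr1a (41.04), Bmpr2 (22.6), Nog (16.9), Bmp6 (11.4), Id1 (9.35), Bmp4 (8.74), Bmp7 (5.55), Id3 (4.85) and Bmpr1b (2.07 FPKM). In this order Id2 exceeded Bmpr1a, Bmpr1a exceeded Bmpr2 and Id3 exceeded Bmpr1b in 6 of 6 libraries, although the ranges of Id2 and Bmpr1a overlapped. Neighbours from Bmpr2 down to Id3 kept their order in only 4 or 5 of 6 libraries, and their ranges overlapped. The receptor and Id2 transcripts were thus more abundant than those of any ligand, with Bmpr1b as the exception. Among all tested genes Id2 lay at percentile 88.6, Bmp6 at 50.2 and Bmpr1b at 11.15, each a mean of 6 libraries.

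The replicate number was a contrast that had no part in choosing the genes, so it was tested, with limma's F test over all genes and genotype in the model. Of the 10 genes 4 passed adjusted p 0.05: Bmp4 (limma adjusted p = 0.000761), Id3 (0.00881), Id1 (0.01365) and Nog (0.0165). Of all 14611 genes 28.6% passed, so the count of the 10 is near that of the transcriptome. Bmp4 had its highest mean at number 2, 15.2 FPKM (n = 2) against 6.52 at number 1 and 4.47 at number 3. Nog did too, at 22.3 FPKM against 15.3 and 13.03 FPKM. In all, 5 of the 10 genes (Bmp4, Bmp7, Nog, Bmpr1a and Bmpr2) stood highest at number 2 within both genotypes, as did 23.7% of all tested genes. Bmp7 enters by a near tie in Nmd+/+, 5.5955 FPKM at number 2 and 5.5943 FPKM at number 1. At number 3, 6 of the 10 (Bmp4, Bmp7, Nog and the 3 Id genes) stood lowest within both genotypes, as did 17.2% of all tested genes. Id2 enters by a near tie in Nmd-/-, 64.95 FPKM at number 3 and 65.14 FPKM at number 2. The part of the fibroblast and meningeal markers, which were also high at number 2, was not tested. Without both libraries numbered 2, Bmp4 still passed between numbers 1 and 3 (0.0277) and Nog did not (0.179).

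Id1 and Id3 instead had their lowest means at number 3, with 6.28 FPKM for Id1 (11.7 and 10.1 FPKM at numbers 1 and 2) and 2.94 FPKM for Id3 (5.72 and 5.88 FPKM). Both missed the threshold without Nmd+/+ replicate 3 (limma adjusted p = 0.0715 and 0.0503). Id2, at 75.7, 60.5 and 56.0 FPKM for numbers 1, 2 and 3, had adjusted p = 0.0728, and Bmp6, at 13.5, 10.4 and 10.3 FPKM, had 0.128. With both libraries numbered 2 left out, both passed (limma adjusted p = 0.0256 for Id2, 0.0362 for Bmp6). Leaving out 1 library leaves 1 library at its number. Whether Id2 and Bmp6 passed then depended on which library it was, and when a library numbered 1 was left out, neither passed. Bmp7 (0.144), Bmpr1a (0.132), Bmpr2 (0.707) and Bmpr1b (0.905) did not pass.

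The rest of the pathway was read from lists of ligands, receptors, antagonists, Smad mediators, inhibitors, targets, Id partners and roof plate genes. Of 95 such genes in the files, the 10 left out, 61 were tested between genotypes and 0 passed in either direction with limma, with or without the replicate block. At an unadjusted p under 0.05 there were 0 of 61 without the block and 2 of 61 with it. Over all genes 0% passed in either fit, and 65 genes (0.445%) had an unadjusted p under 0.05 without the block and 711 (4.87%) with it. Of the 61, 34 had a higher mean in Nmd-/-, and their median log2 difference was 0.050.

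Other ligand genes were scarce, with 2 of 14 tested. Gdf11, which acts on activin receptors, lay between 4.53 and 5.88 FPKM, and Gdf10 between 2.34 and 3.18 FPKM. Bmp2 lay between 0.469 and 1.22 FPKM. The roof plate ligand gene Gdf7 did not exceed 0.0576 FPKM, and Lmx1a, the transcription factor gene of the roof plate itself, did not exceed 0.128 FPKM. Bmp4, Bmp6 and Bmp7 had the 3 highest means over 6 libraries among the ligand genes, although in Nmd+/+ replicate 3 Gdf11, at 4.75 FPKM, exceeded Bmp7 and Bmp4, and Gdf10, at 3.18 FPKM, exceeded Bmp4.

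The other receptor and co-receptor genes were well represented, and 0 of 8 tested passed between genotypes. The co-receptor genes Rgma and Rgmb lay between 37.7 and 70.3 FPKM and between 29.6 and 51.8 FPKM, and Neo1, which encodes their partner neogenin, between 35.7 and 45.5 FPKM. Neo1 had the smallest unadjusted p of this list (log2 difference 0.12, SE 0.13, limma adjusted p = 0.9997). The type I receptor gene Acvr1 averaged 10.9 FPKM and the type II receptor gene Acvr2a 24.8 FPKM.

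Among 17 tested extracellular antagonists and modulators 0 passed. Fstl1, a follistatin-like gene, was the most abundant at 166.5 to 383 FPKM, followed by Twsg1 (37.0 to 46.3 FPKM) and Nbl1 (19.2 to 33.6 FPKM). The smallest unadjusted p of all the lists belonged to Tll2, a protease gene of the Bmp1 family. Its level was 3.17 ± 1.06 FPKM in Nmd+/+ and 4.51 ± 0.29 FPKM in Nmd-/- (SD, n = 3 each), a log2 difference of 0.435 (SE 0.21, limma adjusted p = 0.9997), and was higher in 3 of 3 pairs. In Nmd+/+ replicate 3 Tll2 stood at 1.96 FPKM, against 3.71 and 3.85 FPKM in Nmd+/+ replicates 1 and 2. Tll2 and, in the opposite direction, Dand5 were the only tested genes of these lists whose groups did not overlap, 1 of 61 in each direction. Over all tested genes 1.76% had every Nmd-/- value above every Nmd+/+ value and 0.910% the reverse, so nothing is read from this count. Chrd, the gene of the antagonist chordin, lay between 0.394 and 0.786 FPKM.

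All 4 Smad mediators were tested and 0 passed. Smad5 lay between 51.2 and 64.3 FPKM, Smad4 between 37.6 and 54.03 FPKM, and Smad1 between 17.5 and 23.1 FPKM. Of 10 intracellular inhibitors 0 passed. Smad6 and Smad7, inhibitory Smads that the signal itself induces, averaged 5.17 and 2.65 FPKM. Smad7 had the smallest unadjusted p of its list, at 2.37 ± 0.45 and 2.92 ± 0.23 FPKM (SD, n = 3 each; log2 difference 0.23, SE 0.15, limma adjusted p = 0.9997). The most abundant inhibitors were Tob1 (52.3 to 84.5 FPKM), Ski (45.1 to 64.5 FPKM) and the phosphatase gene Ppm1a (18.7 to 20.8 FPKM).

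Of 6 other target genes tested 0 passed. Id4, the fourth Id gene, lay between 39.2 and 48.4 FPKM, close to Id2 in Nmd+/+ replicate 3, and its mean was lower in Nmd-/- (44.9 ± 4.3 against 40.4 ± 1.8 FPKM, SD, n = 3 each; log2 difference -0.15, SE 0.13, limma adjusted p = 0.9997). Hey1, a target that Notch also drives, had the smallest unadjusted p of the list (9.16 ± 0.90 and 7.85 ± 0.48 FPKM, log2 difference -0.20, SE 0.13, limma adjusted p = 0.9997). The homeobox gene Msx1 lay between 2.67 and 3.94 FPKM. Of 10 tested Id partners 0 passed. The E protein genes Tcf12 and Tcf4 lay between 105.6 and 137 FPKM and between 73.5 and 88.7 FPKM, above every Id gene on average. Olig2 had the smallest unadjusted p of these (8.51 ± 1.48 and 6.55 ± 1.75 FPKM, log2 difference -0.35, SE 0.20, limma adjusted p = 0.9997).

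**Figure D4:**
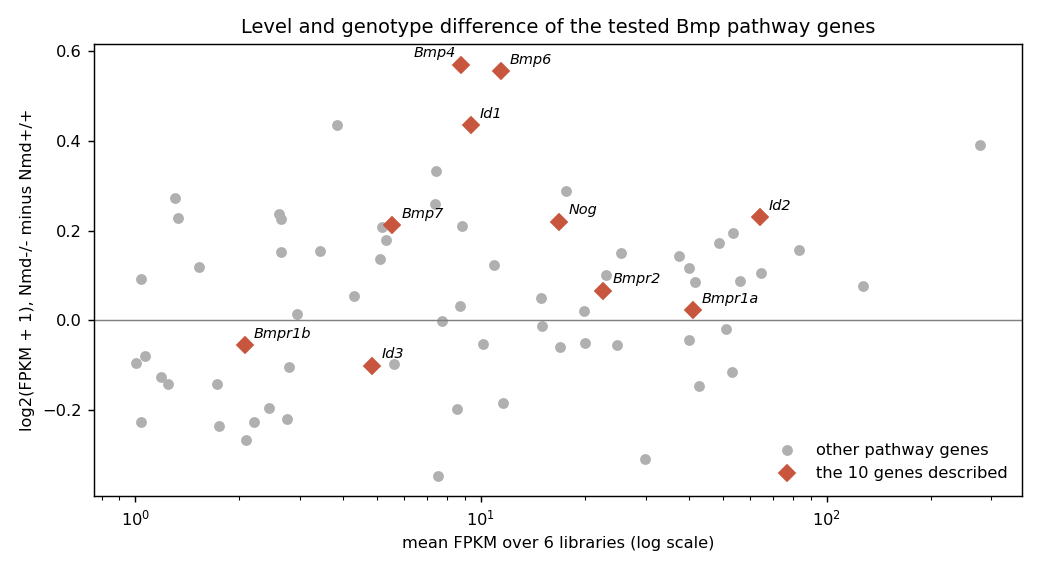
Mean FPKM over 6 libraries (horizontal, log scale) against the genotype difference in log2(FPKM + 1) for the 61 other tested pathway genes (grey points) and the 10 genes described (red diamonds). Bmp4 (0.57) and Bmp6 (0.56) have the largest differences shown.

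Roof plate and dorsal progenitor genes were 4 of 10 tested, with 0 passing between genotypes. Zic1 lay between 27.4 and 76.3 FPKM and Zic2 between 8.86 and 19.9 FPKM. Pax3, with the smallest unadjusted p of this list, measured 2.36 ± 0.45 and 2.94 ± 1.51 FPKM (SD, n = 3 each; log2 difference 0.15, SE 0.30, limma adjusted p = 0.9997).

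The genes whose pattern over the 6 libraries was most like that of Bmp6 were Prmt8, Tnfaip1, Suv39h1, Ints7 and Gm15808, with Pearson r between 0.977 (Gm15808) and 0.988 (Prmt8). For the mean of the standardized Id1, Id2 and Id3 levels they were Polr1c, Wdr62, Gcat, Nop16 and Tmem161a, with r between 0.996 (Tmem161a) and 0.999 (Polr1c). These are descriptions over 6 libraries that share genotype, replicate number and depth, and among 14611 genes such values are easily reached. Id1 correlated with Id2 at r = 0.905 and with Id3 at 0.778, and Id2 with Id3 at 0.559. Bmp4 correlated with Nog at 0.899 and with Bmp7 at 0.852, and Bmp6 with Bmp7 at 0.701 and with Bmp4 at 0.342.

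RefSeq promoters (GRCm38.p6) were found for 7 of the 10 genes, 9 windows in all, of which the 250 bases before the start site were searched on both strands. GGCGCC, a GC-rich element bound by Bmp-activated Smads, occurred in 3 of the 9 windows, those of Bmpr1a, Bmpr2 and Id2, against 9.6% of 32851 windows of the same length. GTCT, the core of the general Smad element, occurred in 7 of 9 against 82.9% of all windows. Of the 9 windows 6, including the 3 with GGCGCC, overlap exons of their own gene in GENCODE M21. For Bmpr1a, Bmpr1b and Id3 the RefSeq start site is not the start of the gene as deposited. These matches describe the letters of the windows and not binding.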

How the data were processed

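FPKM per gene, with the bounds of a 95% interval and a status, were deposited by the authors as 1 table for each of 6 libraries, from Cufflinks 2.2.1 per the file headers and the submitters' processing notes. Further entries there are the build GRCm38, SAMtools 1.3, cutadapt 1.8, Trim Galore 0.4.0 and FastQC 0.10.1. The sources used here do not give the annotation release, the read length or the use of strand, so overlapping genes may not have been separated. FPKM are relative to each library's total, and fragment counts were not used here.

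The 10 genes, the lists and the tests were chosen with earlier results of these data known. In R 4.3.3 with limma 3.58.1, log2(FPKM + 1) was fitted with an intensity trend for genes with a mean of at least 1 FPKM and status OK in 6 libraries, Nmd-/- minus Nmd+/+, 3 against 3. Tests are two-sided with Benjamini-Hochberg adjustment over 14611 genes and a threshold of 0.05. Differences on this scale understate changes of low genes. Each SE is the moderated one of limma, which draws a gene's spread toward that of genes of like level. It can be smaller or larger than an SE from the gene's own values. Replicate numbers were tested with an F statistic beside genotype. Across genes, Nmd+/+ and Nmd-/- libraries with the same number deviated together from their genotype means. Their r was 0.82, 0.696 and 0.387 for numbers 1, 2 and 3. Between different numbers r ranged from -0.812 to 0.28, highest for Nmd+/+ replicate 3 with Nmd-/- replicate 1. Deviations of the 3 libraries of a genotype cancel by construction, so a high r at the same number lowers r between different numbers. The latter are therefore no independent contrast. From the r at the same number, the numbers were taken to pair the libraries, from the data and not from a label. That pairing is weakest for number 3, and the F test of the number used these same values. Depth was read from the intervals, taken as 2 standard errors to each side.

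Named genes were the 10, from each list the 3 highest by mean FPKM and the tested gene with the smallest unadjusted p, and the 5 genes closest to Bmp6 and to the Id mean. Some genes under this rule are not reported here. Gdf7, Lmx1a, Acvr1, Acvr2a, Chrd, Dand5 and Smad6, and the genes named in the closing section for replicate number, were chosen after their values were seen. Alternatives were quantile or median-of-ratios scaling, a pseudocount of 0.1, no filter or one at 5 FPKM, no trend, the replicate block, leaving out each library, and leaving out both libraries numbered 2.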

Additional observations from a re-analysis of the deposited data

How the results depend on the processing

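The count of 0 genes between genotypes, over all genes and over the other pathway genes, was the same under all 15 alternatives, the replicate block (0 and 0 genes) and its combination with median-of-ratios scaling included. The sign of the difference was the same under every alternative for Bmp4, Bmp6, Bmp7, Bmpr2, Id1 and Id2 (15 each) and Bmpr1b (14). It turned for Bmpr1a and Id3 (11 kept it of 15 and 14) and for Nog (14 of 15), each time by leaving out 1 library. Without single libraries the Bmp6 difference lay between 0.40 and 0.68 and that of Bmp4 between 0.11 and 1.08, lowest for both without Nmd+/+ replicate 3. By replicate number 4173 genes and 4 of the 10 passed. With no filter on low values 0 genes and 0 of the 10 passed (6348 genes and 4 of the 10 at an unadjusted p under 0.05), and the cause was not tested. Leaving out 1 library gave between 2281 (without Nmd+/+ replicate 1) and 6466 (without Nmd-/- replicate 2) genes and between 2 (without Nmd+/+ replicate 3) and 6 of the 10. Without Nmd-/- replicate 1 there were 2668 genes. Leaving out both libraries numbered 2, added for this contrast after seeing the data, gave 2850 genes and 5 of the 10. Depth limited Id3, Id1, Bmpr1b and Bmp4 most, whose intervals were equivalent to as few as 113, 157, 194 and 197 fragments.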

Other observations

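Among the other pathway genes 18 of 61 differed between replicate numbers (29.5%, against 28.6% of all tested genes; limma F test, adjusted p under 0.05). By list they were 8 of 17 extracellular antagonists and modulators, 4 of 8 receptors and co-receptors, 3 of 4 roof plate and dorsal genes, 2 of 10 Id partners, 1 of 10 intracellular inhibitors, and 0 of 2 ligands, 0 of 4 Smad mediators and 0 of 6 other targets. Differences between the lists were not tested. Fst, which encodes the activin and Bmp antagonist follistatin, averaged 15.8 FPKM at number 2 (n = 2) against 5.08 and 5.55 FPKM at numbers 1 and 3 (adjusted p = 0.00236). Eng, a co-receptor gene of endothelial and mesenchymal cells, averaged 2.87 FPKM there against 0.592 and 0.445 FPKM (0.00118), and Tgfbr3 6.49 against 3.20 and 3.21 FPKM (0.00613, the last value being that of number 3). The chordin-like gene Chrdl1 (7.49 against 3.66 and 4.83 FPKM, 0.0108) and Crim1 (29.2 against 20.6 and 19.4 FPKM, 0.0167) were also highest at number 2.

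The dorsal genes Zic1 (27.8 against 72.8 and 58.9 FPKM, limma adjusted p = 0.000318) and Zic2 (10.2 against 16.9 and 17.6 FPKM, 0.0162) were lowest at number 2. At number 2 the summed markers of other spinal neurons were lowest too, 316 and 333 FPKM against 472 to 709 FPKM in the other 4 libraries. The endothelial receptor gene Kdr lay between 8.97 and 16.9 FPKM in all libraries, while Pecam1 did not exceed 0.236 FPKM and Cdh5 was listed at 0 in 4 of 6. The part of any of these cells in the Bmp4 and Nog levels at number 2 was not tested.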
